A study of Homo sapiens with 4 samples.

Results

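The SWI/SNF, or BAF, chromatin remodeler exchanges a few of its subunits when neural progenitors become neurons. The 10 genes described here are the subunits of that exchange, selected by symbol from the 26364 genes listed for each sample. They comprise 4 progenitor subunits (ACTL6A, PHF10, DPF2 and SS18), 4 neuronal subunits (ACTL6B, DPF1, DPF3 and SS18L1) and the 2 alternative ATPases SMARCA4 and SMARCA2. RNA-seq was performed in BE(2)C, a human neuroblastoma cell line in which MYCN is amplified. All 4 samples came from this 1 line, carried no engineered allele and were transfected with siRNA for 6 h, at 80 nM by the labels. The study's methods give a lower concentration. In the 2 Ctrl samples the siRNA was non-targeting, and in the 2 MYCN knockdown samples (MYCN KD) it targeted MYCN. RNA was taken on the following day, and a single siRNA was used for the knockdown. The study calls its replicates biological, but neither it nor the labels say that they came from separate cultures, so p-values measure only the spread between these samples, which may be technical.

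BAF complexes use the energy of ATP to slide or evict nucleosomes, and the ATPase is either SMARCA4 (BRG1) or SMARCA2 (BRM). As neural progenitors leave the cell cycle, the actin-related protein ACTL6A (BAF53A) is replaced by ACTL6B (BAF53B), the zinc finger proteins PHF10 (BAF45A) and DPF2 (BAF45D) give way to DPF1 (BAF45B) and DPF3 (BAF45C), and SS18 gives way to its paralog SS18L1 (CREST). The microRNAs miR-9* and miR-124, which the repressor REST holds down outside neurons, are known to silence ACTL6A during this exchange.

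Values are RPKM, made from read counts that had been normalized with RUVSeq and then scaled to the length of each gene and the size of each library, which allows levels of different genes to be set side by side. The whole normalized counts behind them, called reads below, are adjusted counts and not sequenced reads, and their totals were 34142988 and 31976939 in Ctrl against 29055819 and 30941778 in MYCN KD. Genes with a mean of at least 1 RPKM, 11411 in all, were tested with limma on log2(RPKM + 1), and a gene was called at an adjusted p under 0.05 after Benjamini-Hochberg correction. Log2 differences below are MYCN KD minus Ctrl on that scale, each with its standard error (SE). With 2 samples against 2, an exact permutation test of a single gene cannot give a two-sided p below 0.333. MYCN, the targeted gene, measured 1068 and 1073 RPKM in Ctrl against 720.2 and 718.0 RPKM in MYCN KD, a log2 difference of -0.57 (SE 0.029, limma adjusted p = 0.00361), so substantial MYCN mRNA was still present after knockdown. All 9 adrenergic neuroblastoma markers examined were above 0 in every sample. Their sum was 2877.6 to 3146.4 RPKM in Ctrl and 4055.8 to 4435.8 RPKM in MYCN KD. Such markers cannot tell BE(2)C from another adrenergic neuroblastoma line.

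Of the 10 subunit genes, 9 passed the filter on low values. PHF10 fell, ACTL6B and SS18L1 rose, and the other 6 did not pass the test. Across all tested genes, 22.8% were called lower and 25.3% higher, so 1 lower and 2 higher of 9 is close to the background of this comparison. The median log2 difference of the 9 genes was 0.02, against 0.03 over all tested genes. By value alone, 4 of the 9 had both MYCN KD samples below both Ctrl samples and 2 had both above, where 35.8% and 40.4% of all tested genes did so. Among the progenitor subunits 1 of 4 was called lower and 0 higher (median log2 difference -0.09). Among the neuronal subunits 0 of 4 were called lower and 2 higher (median 0.23). Since these are bulk samples, fewer cells of a type and less RNA per cell cannot be told apart.

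**Figure D1:**
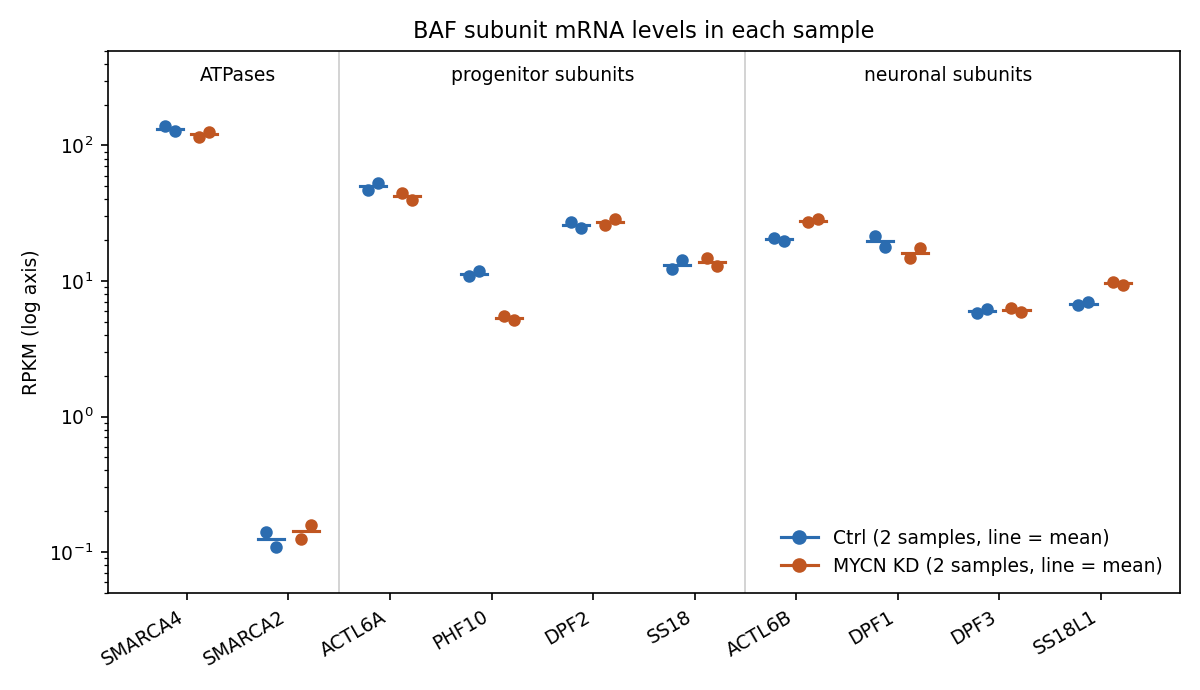
RPKM of the 10 BAF subunit genes (log axis), with 1 point per sample and a line at the mean of each condition, Ctrl in blue and MYCN KD in orange. PHF10 drops from 10.9 and 11.8 to 5.53 and 5.12 RPKM, ACTL6B and SS18L1 shift upward, and SMARCA2 lies far below the others in all 4 samples.

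The ATPase of these cells was SMARCA4 at the mRNA level. SMARCA4 was the most abundant of the 10, with 139 and 128 RPKM in Ctrl against 116 and 126 RPKM in MYCN KD. Both MYCN KD samples were below both Ctrl samples, but the groups nearly touched, and the log2 difference of -0.14 (SE 0.073, 95% interval -0.35 to 0.08) was not called (limma adjusted p = 0.199). SMARCA2, its alternative in the complex, was measured at 0.140 and 0.109 RPKM in Ctrl against 0.125 and 0.160 RPKM in MYCN KD, and the groups overlapped. These values rest on 33, 24, 25 and 34 reads, the widest exact 95% Poisson interval running from 23.6 to 47.5 reads. SMARCA2 was below the filter, and when all genes were tested its log2 difference was 0.02 (limma adjusted p = 0.541). SMARCA4 made up between 99.87% and 99.91% of the summed RPKM of the 2 ATPases in every sample.

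PHF10, the BAF45A subunit of proliferating progenitors, changed most among the 10. Its levels were 10.9 and 11.8 RPKM in Ctrl against 5.53 and 5.12 RPKM in MYCN KD, from 620, 631, 269 and 265 reads. Neither MYCN KD sample came near the Ctrl samples, and the mean dropped from 11.3 ± 0.665 (SD, n = 2) to 5.33 ± 0.293 RPKM (SD, n = 2), which is 0.470 of the Ctrl level. The log2 difference was -0.96 (SE 0.067, 95% interval -1.16 to -0.77, limma adjusted p = 0.00463). In GRCh37, PHF10 lies on the minus strand of chromosome 6 from 170103998 to 170125662, and its canonical transcript has 12 exons. On the opposite strand, C6orf120 shares 485 of the 5982 exonic bases annotated for PHF10. The length fitted to the PHF10 values was 1673 bases, so the shared part of the counted bases is not known. C6orf120 was higher in both MYCN KD samples, at 16.1 and 14.2 RPKM compared with 10.4 and 11.9 RPKM in Ctrl, and because strand-specific counting is not stated, reads in the shared bases cannot be assigned to either gene.

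ACTL6A, the progenitor actin-related protein, also serves in the INO80 and TIP60 remodelers. It measured 47.0 and 53.0 RPKM in Ctrl against 44.6 and 39.7 RPKM in MYCN KD. Both MYCN KD samples were lower, yet the samples of a condition lay nearly as far apart as the conditions, and the log2 difference of -0.24 (SE 0.095, 95% interval -0.52 to 0.04) was not called (limma adjusted p = 0.116). When 1 sample is left out, a condition has a lone sample, which is assumed to vary like the samples of the other condition, and adjusted p-values from such fits can be far smaller or larger. In such fits, without Ctrl replicate 1 the difference was -0.33 (limma adjusted p = 0.0200), and without MYCN KD replicate 1 it was -0.32 (limma adjusted p = 0.0270), whereas without either replicate 2 it was -0.16 (limma adjusted p = 0.303 and 0.311). Here and below, leaving out either replicate 1 gave nearly the same difference, as did leaving out either replicate 2. Such fits are therefore not separate checks. ACTL6A shares 123 of 3668 exonic bases with MRPL47 on the other strand, which measured 51.3 and 52.6 RPKM in Ctrl against 41.9 and 41.0 RPKM in MYCN KD. The length fitted to the ACTL6A values was 1946 bases, so here too the shared part of the counted bases is not known.

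The remaining progenitor subunits showed no detectable change. DPF2, a ubiquitous zinc finger subunit, had 27.4 and 24.8 RPKM in Ctrl against 25.8 and 28.5 RPKM in MYCN KD (log2 difference 0.05, SE 0.082, 95% interval -0.19 to 0.30, limma adjusted p = 0.612). SS18, the subunit fused in synovial sarcoma, had 12.3 and 14.2 RPKM in Ctrl against 14.8 and 12.8 RPKM in MYCN KD (log2 difference 0.06, SE 0.11, 95% interval -0.27 to 0.38, limma adjusted p = 0.698). In both genes the conditions overlapped, and the 2 samples of a condition differed by more than the condition means did.

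ACTL6B, the actin-related protein of neuronal BAF complexes, rose. It was at 20.9 and 19.9 RPKM in Ctrl against 27.3 and 28.6 RPKM in MYCN KD, from 1092, 973, 1213 and 1356 reads. The conditions were well separated, and the mean rose 1.37-fold from 20.4 ± 0.718 (SD, n = 2) to 27.9 ± 0.959 RPKM (SD, n = 2). The log2 difference was 0.44 (SE 0.050, 95% interval 0.29 to 0.58, limma adjusted p = 0.00918). The gene lies on the minus strand of chromosome 7 from 100240720 to 100254071 (GRCh37), and its canonical transcript has 14 exons. ACTL6B mRNA was thus present in Ctrl as well, beside that of ACTL6A.

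SS18L1, the neuronal paralog of SS18 and a calcium-responsive transactivator, rose to a similar extent. Its values were 6.60 and 6.98 RPKM in Ctrl against 9.88 and 9.36 RPKM in MYCN KD, from 1121, 1110, 1428 and 1440 reads. Again the conditions were apart, with a 1.42-fold rise of the mean from 6.79 ± 0.267 (SD, n = 2) to 9.62 ± 0.371 RPKM (SD, n = 2) and a log2 difference of 0.45 (SE 0.053, 95% interval 0.29 to 0.60, limma adjusted p = 0.0101). SS18L1 lies on the plus strand of chromosome 20 from 60718825 to 60757570 (GRCh37), and its canonical transcript has 11 exons. On the opposite strand, an annotated gene without values in these data shares 915 of the 5150 exonic bases annotated for SS18L1. Reads in those bases cannot be assigned to either gene. DPF2 shares 1239 of 9155 exonic bases with another such gene.

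The neuronal BAF45 genes did not follow. DPF1 (BAF45B) had 21.4 and 17.9 RPKM in Ctrl against 14.7 and 17.5 RPKM in MYCN KD, so that it was lower in both MYCN KD samples although it is a neuronal subunit. Its log2 difference of -0.27 (SE 0.13, 95% interval -0.66 to 0.12) was not called (limma adjusted p = 0.174), while the fits with a lone sample gave -0.39 without Ctrl replicate 2 (limma adjusted p = 0.0100) or MYCN KD replicate 2 (limma adjusted p = 0.0161), and -0.15 and -0.16 without either replicate 1 (limma adjusted p = 0.386 and 0.384). DPF3 (BAF45C), which reads acetylated and methylated histone H3, had 5.82 and 6.20 RPKM in Ctrl against 6.28 and 5.91 RPKM in MYCN KD. Its conditions overlapped, with a log2 difference of 0.02 (SE 0.056, 95% interval -0.15 to 0.18, limma adjusted p = 0.830).

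**Figure D2:**
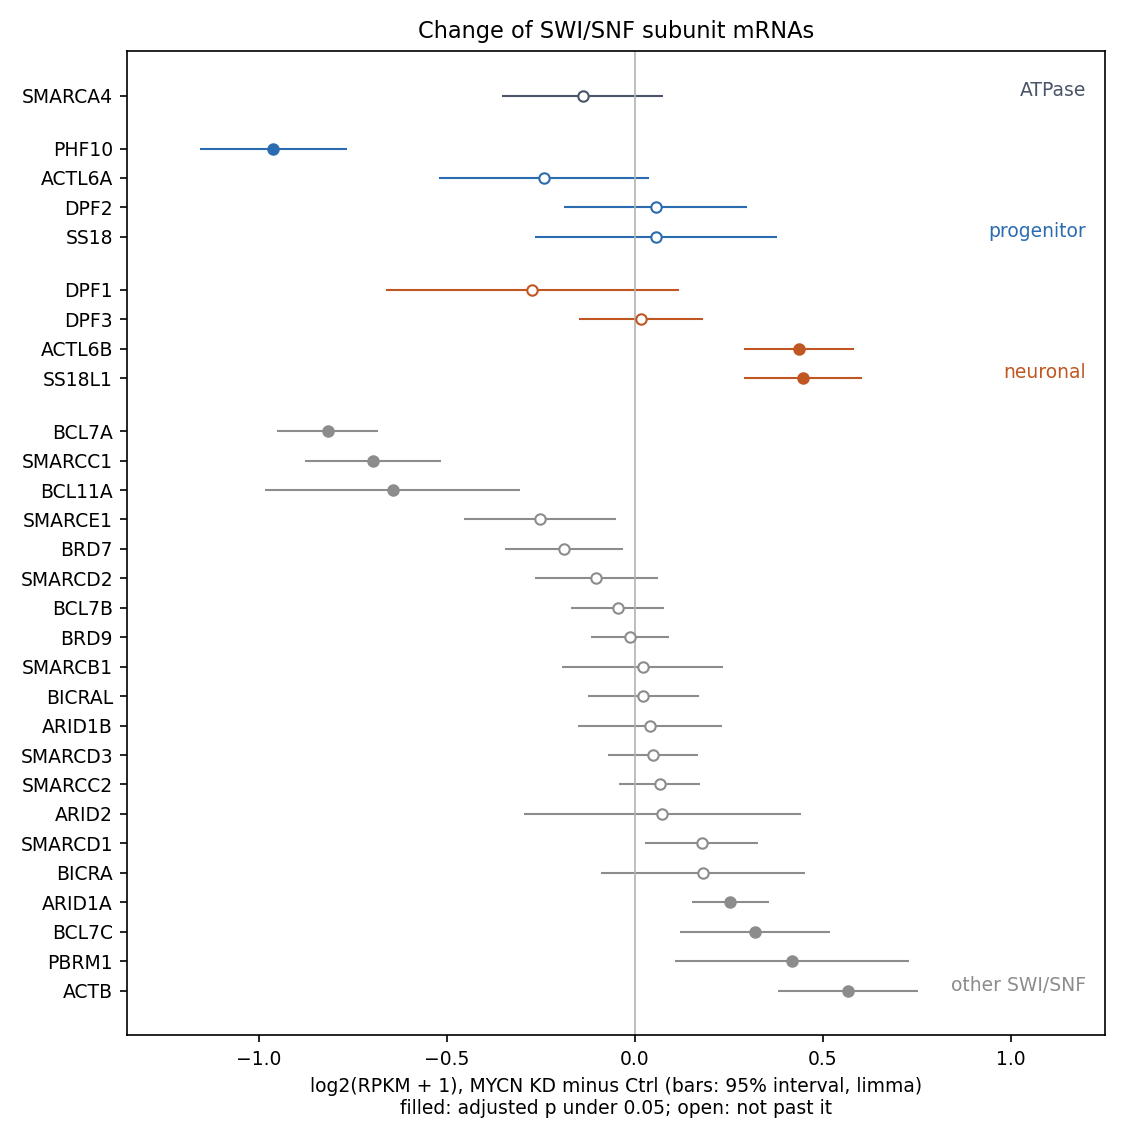
Log2 difference (MYCN KD minus Ctrl, log2(RPKM + 1)) of the tested BAF and other SWI/SNF subunit genes, with 95% intervals from limma. Filled points passed an adjusted p of 0.05. PHF10 at -0.96 lies furthest to the left, ACTL6B (0.44) and SS18L1 (0.45) are the filled neuronal genes, and DPF1 lies left of 0.

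Levels within each paralog family were then expressed as a share of their summed RPKM, as a description without a test. ACTL6A made up 69.2% and 72.7% of the ACTL6A and ACTL6B sum in Ctrl against 62.0% and 58.1% in MYCN KD, a difference of -10.9 percentage points between the means. SS18 made up 65.0% and 67.0% of the SS18 and SS18L1 sum in Ctrl against 59.9% and 57.8% in MYCN KD, a difference of -7.17 points. In both pairs the share was lower in each MYCN KD sample than in either Ctrl sample, and the progenitor partner still held more than its neuronal partner in all 4 samples. The BAF45 family behaved otherwise. PHF10 and DPF2 together made up 58.5% and 60.3% of the 4 BAF45 genes in Ctrl against 59.9% and 59.0% in MYCN KD, and these ranges overlapped. PHF10 alone held 16.6% and 19.4% in Ctrl against 10.6% and 8.98% in MYCN KD. The PHF10 share was thus lower in both MYCN KD samples. It was not among the planned shares and restates the fall of PHF10 itself.

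**Figure D3:**
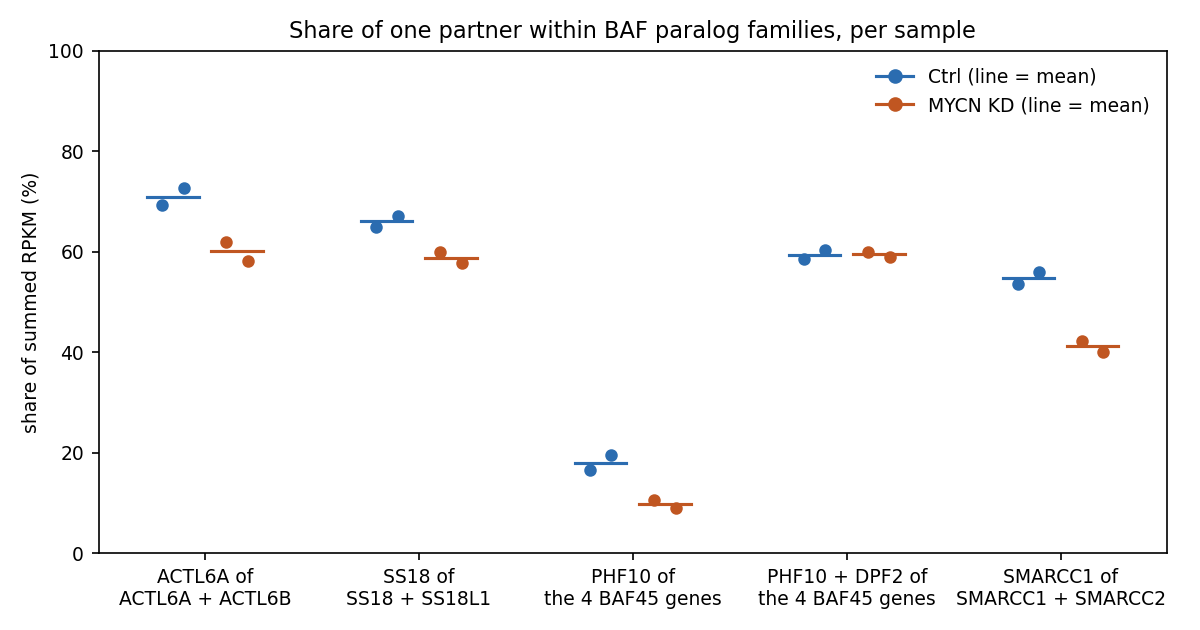
Share (%) of 1 partner in the summed RPKM of its paralog family, with 1 point per sample and a line at each condition's mean. The ACTL6A, SS18, PHF10 and SMARCC1 shares lie lower in both MYCN KD samples, whereas the share of PHF10 and DPF2 together overlaps between conditions, at 58.5% to 60.3%. The shares of PHF10 alone and of SMARCC1 were not planned.

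By mean RPKM the order in Ctrl was SMARCA4, ACTL6A, DPF2, ACTL6B, DPF1, SS18, PHF10, SS18L1, DPF3 and SMARCA2. The ranges of the 2 samples overlapped only between ACTL6B and DPF1 among neighbours in this order. In MYCN KD the order was SMARCA4, ACTL6A, ACTL6B, DPF2, DPF1, SS18, SS18L1, DPF3, PHF10 and SMARCA2, and the ranges overlapped between ACTL6B and DPF2 and between DPF1 and SS18. PHF10 thus moved from rank 7 to rank 9, below SS18L1 and DPF3, and ACTL6B from rank 4 to rank 3.

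Promoters of the 3 called genes are shown because MYCN and its partner MAX bind E-box sequences such as CACGTG. Each is a RefSeq promoter running 5′ to 3′ on the strand of the gene, with 250 bases before the start site in lower case and 50 bases from it in capitals, and was placed in GRCh37 by its only exact match there. PHF10 is at chr6:170124547-170124846 (minus strand), ACTL6B at chr7:100254022-100254321 (minus strand) and SS18L1 at chr20:60718575-60718874 (plus strand).
PHF10: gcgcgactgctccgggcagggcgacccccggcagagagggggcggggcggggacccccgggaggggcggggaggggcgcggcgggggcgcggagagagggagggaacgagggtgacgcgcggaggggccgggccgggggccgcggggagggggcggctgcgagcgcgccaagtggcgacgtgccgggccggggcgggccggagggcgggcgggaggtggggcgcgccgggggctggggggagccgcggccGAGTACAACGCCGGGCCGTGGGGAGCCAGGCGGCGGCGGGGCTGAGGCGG
ACTL6B: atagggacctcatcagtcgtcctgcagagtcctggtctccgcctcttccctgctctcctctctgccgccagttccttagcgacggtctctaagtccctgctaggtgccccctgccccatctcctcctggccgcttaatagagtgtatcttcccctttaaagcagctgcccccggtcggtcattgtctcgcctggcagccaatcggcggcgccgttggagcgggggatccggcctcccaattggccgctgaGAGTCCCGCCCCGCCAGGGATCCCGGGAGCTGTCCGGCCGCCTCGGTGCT
SS18L1: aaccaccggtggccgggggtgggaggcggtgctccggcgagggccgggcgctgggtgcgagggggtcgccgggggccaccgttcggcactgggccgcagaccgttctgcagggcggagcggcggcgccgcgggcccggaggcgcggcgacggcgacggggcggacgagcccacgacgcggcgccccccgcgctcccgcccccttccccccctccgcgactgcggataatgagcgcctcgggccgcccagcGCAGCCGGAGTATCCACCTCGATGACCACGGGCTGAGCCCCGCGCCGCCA
Of these windows the PHF10 promoter was 85.3% G or C, the SS18L1 promoter 80.0% and the ACTL6B promoter 65.0%. CACGTG, searched on both strands, was in 0 of the 15 promoters of the 9 members in the RefSeq table, where 7.26% of all 35116 promoters of this length held it. The E-box variant CACGCG, which 11.4% of all promoters held, was found in a promoter of SMARCA4 at positions -224, -172 and -38 from the start site. CATGTG, held by 11.1% of all promoters, was found in 2 of the alternative promoters of SMARCA2. A match is a run of letters and was not tested as a binding site.

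The genes known to govern the progenitor to neuronal exchange were examined as a further list of 13, of which 6 were above the filter. PTBP1 and C1orf61 were called lower and none higher, where 22.8% of all tested genes were called lower and 25.3% higher. REST, the repressor of neuronal genes, was hardly present, with 10 and 14 reads in Ctrl against 31 and 21 reads in MYCN KD (0.0393, 0.0587, 0.143 and 0.0910 RPKM), and was not tested. Its corepressors RCOR1 (log2 difference -0.06, limma adjusted p = 0.438) and RCOR2 (-0.23, limma adjusted p = 0.146) were not called. PTBP1, the splicing repressor of non-neuronal cells, fell from 346.5 and 319.5 RPKM to 252.6 and 273.5 RPKM, with a log2 difference of -0.34 (SE 0.068, limma adjusted p = 0.0284). PTBP2, its neuronal paralog, had a log2 difference of 0.15 and was not called (limma adjusted p = 0.258).

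Among the microRNA genes and hosts on this list, C1orf61 (MIR9-1HG), the host of MIR9-1, fell from 4.83 and 5.69 RPKM to 3.48 and 2.98 RPKM (log2 difference -0.56, SE 0.11, limma adjusted p = 0.0249). MIR9-3 had 5 and 6 reads in Ctrl, and 2 and 1 in MYCN KD, with overlapping Poisson intervals, and as it passed the filter only through Ctrl its test is not used. MIR9-1, MIR9-2, MIR124-1 and its host LINC00599 (MIR124-1HG) had 0 reads in every sample, and MIR124-2 and MIR124-3 had at most 1 read. Such rows count reads over precursors and hosts, and mature microRNAs were not measured. The mature strand miR-9*, listed as hsa-miR-9-3p by RefSeq, is printed with its seed (bases 2 to 8) in capitals, followed by the 2 places in the ACTL6A 3′ UTR (chromosome 3, plus strand, GRCh37) that match the seed, with the matching letters in capitals.
hsa-miR-9-3p: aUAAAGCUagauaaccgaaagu
ACTL6A chr3:179305832-179305856: caccttacgtttcatAGCTTTAgta
ACTL6A chr3:179305921-179305945: acttaaattttttaaAGCTTTAact
SMARCA2 had 1 such match and the other 8 members had 0, and 12.7% of 7622 canonical 3′ UTRs on the chromosomes of the members had at least 1. ACTL6A thus held 2 seed matches in a 3′ UTR of 400 bases while no gene of the 9 other members held more than 1, and ACTL6A mRNA itself was not called.

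Besides the exchanged subunits, the complex contains shared and accessory subunits, and 20 of 21 listed passed the filter. Of these, 3 were called lower, 4 higher and 13 neither, with a median log2 difference of 0.03. Neither share exceeds that of all tested genes (22.8% lower, 25.3% higher). BCL7A, a nucleosome-binding accessory subunit, fell from 19.1 and 18.3 RPKM to 9.97 and 10.4 RPKM (log2 difference -0.82, SE 0.046, limma adjusted p = 0.00391). SMARCC1 (BAF155), a scaffold of the complex, fell from 36.4 and 39.1 RPKM to 23.6 and 22.1 RPKM (log2 difference -0.70, SE 0.062, limma adjusted p = 0.00631). BCL11A, a zinc finger protein associated with the complex, fell from 2.98 and 2.40 RPKM to 1.21 and 1.502 RPKM (log2 difference -0.64, SE 0.12, limma adjusted p = 0.0222). In each of the 3 genes both MYCN KD samples were below both Ctrl samples, as in 35.8% of all tested genes, which adds little to the calls.

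SMARCC1 has a paralog, SMARCC2 (BAF170), that can take its place in the core. SMARCC2 was at 31.5 and 30.8 RPKM in Ctrl against 32.3 and 33.0 RPKM in MYCN KD and was not called (limma adjusted p = 0.215). SMARCC1 therefore held 53.6% and 55.9% of their sum in Ctrl against 42.2% and 40.1% in MYCN KD, a difference of -13.6 percentage points between the means, so that the more abundant partner was SMARCC1 in both Ctrl samples and SMARCC2 in both MYCN KD samples.

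ACTB, the actin of the complex and of the cytoskeleton, showed the largest rise on this list, from 3964 and 3680 RPKM to 5459 and 5864 RPKM (log2 difference 0.57, SE 0.063, limma adjusted p = 0.00896). PBRM1, the defining subunit of PBAF, rose from 6.84 and 7.92 RPKM to 10.9 and 9.48 RPKM (log2 difference 0.42, limma adjusted p = 0.0469), a call that was lost without Ctrl replicate 1 (limma adjusted p = 0.0567) or without MYCN KD replicate 1 (limma adjusted p = 0.0707). BCL7C, a paralog of BCL7A, rose from 11.9 and 10.98 RPKM to 14.0 and 15.1 RPKM (log2 difference 0.32, limma adjusted p = 0.0314), and lost its call without Ctrl replicate 2 (limma adjusted p = 0.108) or without MYCN KD replicate 2 (limma adjusted p = 0.134). ARID1A, the fourth gene called higher and the DNA-binding subunit of canonical BAF, rose from 28.7 and 28.3 RPKM to 33.9 and 34.4 RPKM (log2 difference 0.25, limma adjusted p = 0.0129), and when any 1 sample was left out the difference stayed at 0.24 to 0.26 with a limma adjusted p between 0.0768 and 0.127. BCL11B, below the filter, had 7 and 6 reads in Ctrl against 8 and 9 reads in MYCN KD.

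**Figure D4:**
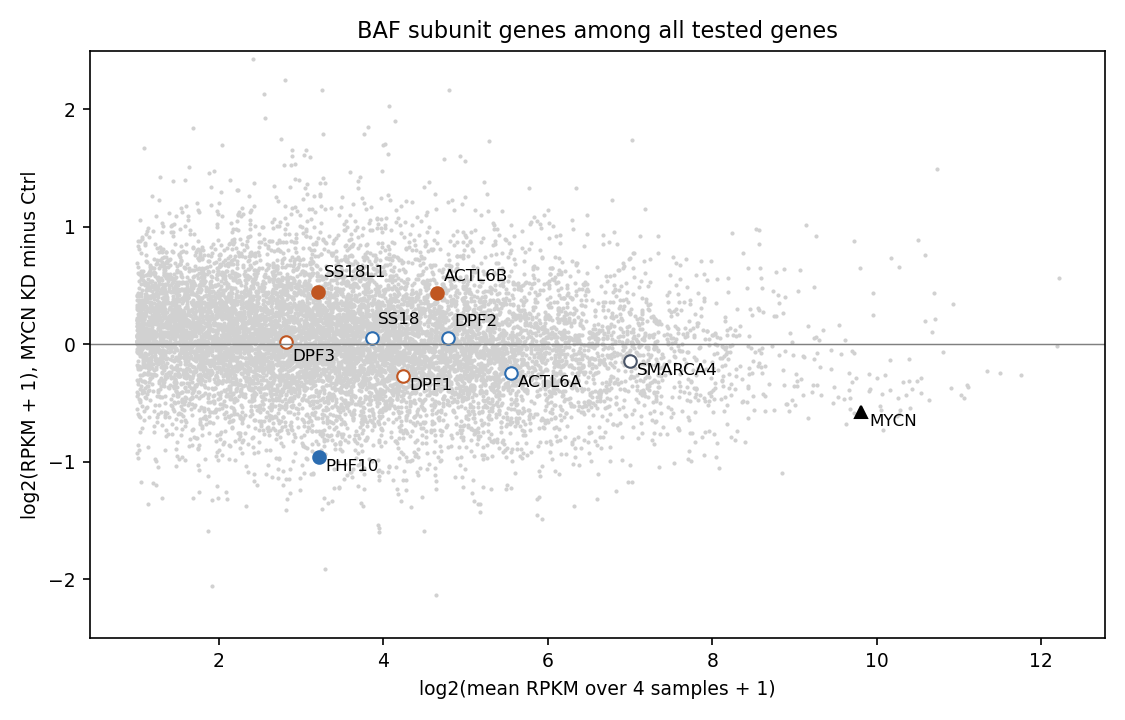
Log2 difference (MYCN KD minus Ctrl) against mean level, log2(mean RPKM + 1), for the 11411 tested genes (grey), with the 9 tested BAF subunit genes and MYCN marked. Filled circles are called and open circles are not. PHF10 lies in the lower part of the cloud at its level, and ACTL6B and SS18L1 lie in its upper part but within it.

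Neuronal and proliferation genes were set beside the subunits. Of 12 neuronal maturation genes 11 were tested, 6 were called higher and 0 lower, with a median log2 difference of 0.53, where 25.3% of all tested genes were called higher and 22.8% lower. ELAVL4, a neuronal RNA-binding protein, rose most, from 12.4 and 14.8 RPKM to 32.8 and 27.7 RPKM (log2 difference 1.10, SE 0.13, limma adjusted p = 0.00998). The lowest difference was that of SNAP25, a synaptic vesicle fusion protein, at 18.9 and 20.8 RPKM in Ctrl against 16.9 and 15.4 RPKM in MYCN KD, which was not called (limma adjusted p = 0.0533). Among 6 proliferation genes, 3 were called lower and 0 higher, beside the same 22.8% and 25.3%. PCNA, the clamp of DNA replication, had the lowest difference, from 142 and 205 RPKM to 89.1 and 62.6 RPKM (limma adjusted p = 0.0400), a call lost when no filter was applied (limma adjusted p = 0.0652) or samples were rescaled to 1 total (limma adjusted p = 0.0537). MCM2 (log2 difference -0.67, limma adjusted p = 0.00604) and CCNB1 (-0.39, limma adjusted p = 0.00812) were also called lower. Both kept their calls in the other fits to all 4 samples. The conditions overlapped for MKI67, at 42.9 and 46.5 RPKM in Ctrl against 46.5 and 43.1 RPKM in MYCN KD. Some markers of other cell types were present at levels like those of the less abundant subunits. The summed level of 5 immune markers was 5.29 to 6.18 RPKM in Ctrl and 11.1 to 13.3 RPKM in MYCN KD. That of 5 fibroblast markers was 12.6 to 14.97 and 16.7 to 19.6 RPKM. CD68, a macrophage marker, was called higher, from 4.26 and 3.45 to 9.40 and 11.5 RPKM (limma adjusted p = 0.00918), while CD14 overlapped between conditions and PTPRC, the pan-leukocyte marker, was at or near 0. DCN, a matrix proteoglycan, was called higher, from 4.58 and 5.52 to 9.33 and 7.78 RPKM (limma adjusted p = 0.0269), while LUM, COL3A1 and COL1A2 overlapped. COL1A1 was also higher in both MYCN KD samples, from 0.726 and 0.739 to 1.78 and 1.74 RPKM. As COL1A1 passed the filter only through MYCN KD, its test is not used. For 4 endothelial markers the sums were 0.291 to 0.367 and 0.515 to 0.644 RPKM, and for 5 astrocyte and oligodendrocyte markers, of which MOG was at 0, they were 0.889 to 0.904 and 1.19 to 1.22 RPKM. Their part in the subunit results was not tested.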

How the data were processed

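The 4 RNA-seq samples of BE(2)C cells, 2 Ctrl and 2 MYCN KD, were grouped by their labels. Per the labels and methods, the authors aligned reads with HISAT2 2.1.0 (hg19), counted RefSeq genes with featureCounts, and passed the counts through DESeq2 and then RUVSeq, which removes unwanted variation and whose variant and factors are not given in the sources used here. The authors deposited RPKM values made from these normalized counts. The tests therefore see only the spread left after that step.

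The sample totals and whole reads behind the RPKM values were recovered from the steps between low values, and rest on RUVSeq-normalized counts. At annotated lengths, 93.6% to 93.9% of the short RNA genes that set the totals were whole within 0.001, and with a length fitted to each gene all 19908 genes above 0 were whole within 4.1e-05. The fitted length was the smallest that gave whole reads in every sample. Reads with a common divisor would thus come out too low, and whole values alone do not show that the reads are right. Poisson intervals treat these adjusted counts as reads and cover counting error only. In R 4.3.3, limma 3.58.1 was fitted to log2(RPKM + 1) of all 4 samples (lmFit, then eBayes with trend, no block) for the 11411 genes whose mean reached 1 RPKM, and p-values were adjusted by Benjamini-Hochberg, with calls at 0.05. On simulated data with 200 changed genes among 11411, this fit found 50.1% of log2 changes of 0.5 and 97.8% of log2 changes of 1, and 14.4% of its calls were unchanged genes. The simulated samples were independent and far fewer genes changed than were called here, so these shares hold for that simulation only.

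The members and gene lists were chosen with earlier results of these data known. All members were named, with MYCN and, of the other SWI/SNF subunits, the called genes with the 3 lowest and the 3 highest differences. ARID1A, SMARCC2, MKI67, MCM2, CCNB1, the markers of other cell types and the genes overlapping a member were added after their values were seen. The shares of PHF10 alone and of SMARCC1 were not among the shares planned. Lists of switch regulators, INO80 and TIP60 subunits, proliferation, neuronal maturation and cell type markers are described by counts and the named extremes. Positions and 3′ UTRs come from GENCODE release 44 lifted to GRCh37. Promoter and microRNA sequences come from RefSeq tables (GRCh38.p14), which matched 9 of 10 members, and no promoter of ACTL6A was in them. Alternatives covered the pseudocount (0.1), the filter (none, or a mean of 5), quantile normalization, rescaling to 1 total, eBayes without trend, limma voom on the recovered reads, a replicate block and leaving out each sample. For the shares, 1 RPKM was also added to each term.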

Additional observations from a re-analysis of the deposited data

How the results depend on the processing

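Across the 13 alternatives, the log2 difference was -1.09 to -0.91 for PHF10 and 0.40 to 0.50 for ACTL6B. It was 0.41 to 0.50 for SS18L1 and -0.58 to -0.38 for MYCN. The crossed block described below, 1 of the 13, called almost every gene, so its calls are not counted here. In the other fits to all 4 samples, PHF10, ACTL6B, SS18L1 and MYCN were called in the same direction. Their highest limma adjusted p was 0.00916, 0.0162, 0.0304 and 0.00839, in that order. Leaving out 1 sample at a time gave ACTL6A -0.33 to -0.16, DPF1 -0.39 to -0.15, DPF2 -0.0164 to 0.126, SS18 -0.0422 to 0.154 and DPF3 -0.0233 to 0.0553, so that the last 3 changed sign, and DPF3 was also -0.0410 under quantile normalization. Some calls of members and of other SWI/SNF subunits changed in these fits. The fits that left out a sample fall into near-equal pairs by replicate number, so they are not separate checks. Same-numbered samples deviated from their condition means in opposite directions (correlation -0.985 over 11411 genes). As the counts had passed RUVSeq, whether the numbers pair the samples cannot be told from this. The main fit assumes 4 independent samples, which deviations this closely linked do not meet. Its SEs, intervals and adjusted p-values all rest on that assumption. With the replicate block, 1851 genes were called lower and 2077 higher, against 2599 and 2890 without it. The 3 member calls held (PHF10 -0.96, ACTL6B 0.44, SS18L1 0.45), and 2 in place of 4 other SWI/SNF subunits were called higher, without ARID1A and BCL7C (adjusted p = 0.182 and 0.121). PBRM1 was not called when no filter was applied (adjusted p = 0.0728). A crossed block, chosen after seeing the data, called 5262 lower and 5910 higher of 11411, with 4 members lower, 5 higher, and 8 and 12 other SWI/SNF subunits, at unchanged differences (ACTL6A -0.24, DPF1 -0.27, SMARCA4 -0.14, DPF2 0.0549, SS18 0.0558, DPF3 0.0160). The cause was not tested. With a mean of at least 5 RPKM, 2106 genes were lower and 1868 higher of 7859, and after rescaling samples to 1 common total, 2122 and 3279 of 11411. The SMARCA4 share of the ATPases differed by -0.0239 points, by -0.000824 under quantile normalization and by -0.0972 with 1 RPKM added to each term. Depth limits SMARCA2, REST, BCL11B and the microRNA genes.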

Other observations

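ACTL6A is also a subunit of the INO80 and TIP60 remodelers. Of 28 other subunits of these complexes 27 were tested, 10 were called lower and 1 higher, and the median log2 difference was -0.13, where 22.8% of all tested genes were called lower and 25.3% higher. RUVBL1, an AAA+ ATPase shared by both complexes, fell from 210.4 and 201.1 RPKM in Ctrl to 118.2 and 123.7 RPKM in MYCN KD (log2 difference -0.76, limma adjusted p = 0.00414). UCHL5, the deubiquitinase of INO80, fell from 8.54 and 9.64 RPKM to 6.02 and 5.37 RPKM (log2 difference -0.59, limma adjusted p = 0.0154). EPC2, a TIP60 subunit, was the 1 gene called higher, from 2.74 and 3.14 RPKM to 4.33 and 3.80 RPKM (log2 difference 0.36, limma adjusted p = 0.0432), and was not called without Ctrl replicate 1 (limma adjusted p = 0.101) or MYCN KD replicate 1 (limma adjusted p = 0.109). With the replicate block 5 were called lower and 0 higher, where 1851 and 2077 of all 11411 tested genes were called so. The number called lower thus depended on the fit, and it was also smaller whenever 1 sample was left out.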
